A study of Mus musculus with 20 samples.

Results

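The genes of fatty acid synthesis were followed through the livers of mice given benzo(a)pyrene (BaP), a polycyclic aromatic hydrocarbon that is converted in the body to DNA-binding metabolites. The 10 genes (*Fasn*, *Acaca*, *Acacb*, *Acly*, *Scd1*, *Elovl6*, *Me1*, *Srebf1*, *Thrsp* and *Mlxipl*) were chosen by name, as enzymes and regulators of the pathway apart from the sterol branch. The choice was made with earlier results of these data known. Probes were matched through the accession printed on the array, by RefSeq or, for the brighter *Acacb* probe, the study's table of significant genes. Of the 27346 probes present in liver 14 belonged to the 10 genes, and each gene was among the 12996 with a present probe. Liver RNA came from 20 male Muta™Mouse animals (transgenic strain 40.6, which carries a *lacZ* reporter in every group, controls included), 25 weeks of age. A control group of 5 mice received olive oil and 3 groups of 5 received BaP in olive oil at 25, 50 or 75 mg/kg/day by gavage over 28 days, and all were killed 3 days after the last dose. Each liver was labeled with Cyanine 5 and hybridized once, with Cyanine 3 universal mouse reference RNA, to a two-color array. Values are log2 ratios of liver over reference unless stated, a difference of 1 is a doubling, and a level of one probe is not compared with that of another.

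The liver makes fatty acids from the carbon of sugar. Citrate leaves the mitochondrion, ATP citrate lyase (*Acly*) splits it to acetyl-CoA, and the acetyl-CoA carboxylases (*Acaca* in the cytosol, *Acacb* at the mitochondrial surface) make malonyl-CoA, which fatty acid synthase (*Fasn*) joins into palmitate with NADPH supplied in part by malic enzyme (*Me1*). *Elovl6* lengthens palmitate and stearoyl-CoA desaturase (*Scd1*) puts in the first double bond. Insulin acts on these genes largely through SREBP-1c, a product of *Srebf1*, and glucose through ChREBP, the product of *Mlxipl*, while *Thrsp* (Spot 14) is a nuclear and cytosolic protein that follows lipogenic diets and thyroid hormone. Fasting lowers most of the set and refeeding raises it, and many of the genes also follow the hour of the day.

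The 250 bases before the transcription start are shown for 4 of the genes, because these regulators and their best known targets share short sequence words: *Fasn* and *Thrsp*, as classical targets, and *Srebf1* and *Mlxipl*, as the regulators. The sequences are RefSeq promoters of build GRCm38.p6, written 5′ to 3′ on the strand of the gene, and capitals mark the words searched on both strands, namely CCAAT (the word of NF-Y), GGGCGG (the GC box of Sp1) and CACGTG (the E-box that ChREBP and USF proteins can bind).
Fasn, chr11:120824548-120824797, minus strand: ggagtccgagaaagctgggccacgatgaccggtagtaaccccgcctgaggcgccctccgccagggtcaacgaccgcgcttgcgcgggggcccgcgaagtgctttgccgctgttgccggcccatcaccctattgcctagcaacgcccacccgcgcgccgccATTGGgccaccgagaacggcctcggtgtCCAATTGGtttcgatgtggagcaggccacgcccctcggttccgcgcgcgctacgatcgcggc
Thrsp, chr7:97417551-97417800, minus strand: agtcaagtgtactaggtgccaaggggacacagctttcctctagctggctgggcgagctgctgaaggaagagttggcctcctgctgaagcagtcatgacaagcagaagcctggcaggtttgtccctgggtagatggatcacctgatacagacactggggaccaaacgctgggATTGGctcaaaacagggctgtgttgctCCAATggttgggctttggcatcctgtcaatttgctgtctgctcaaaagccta
Srebf1, chr11:60210472-60210721, minus strand: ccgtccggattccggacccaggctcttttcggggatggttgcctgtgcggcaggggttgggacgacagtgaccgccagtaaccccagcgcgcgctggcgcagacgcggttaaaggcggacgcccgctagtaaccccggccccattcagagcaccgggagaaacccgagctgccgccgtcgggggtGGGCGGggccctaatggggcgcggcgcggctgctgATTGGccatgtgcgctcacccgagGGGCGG
Mlxipl, chr5:135089640-135089889, plus strand: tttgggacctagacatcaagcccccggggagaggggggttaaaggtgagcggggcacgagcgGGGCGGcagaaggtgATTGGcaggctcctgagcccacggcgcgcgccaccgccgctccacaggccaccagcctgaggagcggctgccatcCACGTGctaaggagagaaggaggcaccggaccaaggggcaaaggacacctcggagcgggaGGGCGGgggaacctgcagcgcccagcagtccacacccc
In the *Fasn* promoter 3 CCAAT words were found, a pair of which overlap, with their last bases 86, 58 and 55 bases before the start. *Thrsp* held 2 of them, at 75 and 48 bases. The *Srebf1* stretch, 1 of 3 listed starts of that gene, held 1 CCAAT word and 2 GC boxes, and the *Mlxipl* stretch, 1 of 2 listed starts, held 1 CACGTG, 1 CCAAT and 2 GC boxes. Promoters were listed for 9 of the 10 genes, 13 in all, and CCAAT was in 7 of them and GGGCGG in 5. Of all 32851 listed mouse promoters of this length, 33.8% held CCAAT, 32.7% held GGGCGG and 6.02% held CACGTG. The half-site TCACNCCAC of the sterol element, in 1.05% of all promoters, was found only in the other listed *Mlxipl* start. These words are a description of the sequence in these windows.

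The samples had the markers of liver. All 8 measured hepatocyte markers (*Alb*, *Apoa1* and *Ttr* among them) were well above background on all 20 arrays, and their mean ratios to the reference lay between 3.74 and 5.79. None of the 8 measured lung epithelium markers was well above background on all arrays and 3 were so on no array, *Sftpc* among them, although 1 of the labels names lung. Among the rest, *Sftpd* was well above background on 19 of 20 arrays, with a mean ratio of 1.499, and *Sftpa1* on 16 of 20, with a mean ratio of 0.51. The share of liver-channel spots well above background ran from 51.9 to 67.5% over the arrays and was highest in control replicate 4. The arrays lay on 6 slides, and dose followed the position on the slide: all 5 arrays at 25 mg/kg/day were at position 2, all 5 at 75 mg/kg/day at position 4, 4 of 5 controls at position 1 and 4 of 5 at 50 mg/kg/day at position 3. Dose and position therefore cannot be told apart for almost every array.

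Across the 10 genes, 9 had a mean above the control mean at each of the 3 doses, and *Acaca*, whose 3 probes differ in direction, was the exception at each. The median log2 fold change of the 10 was 0.29, 0.35 and 0.42 from the lowest to the highest dose, while the median of all present probes was 0.00 at each dose. The doses share the same 5 control livers, so the 3 medians are not separate observations. *Fasn* at 75 mg/kg/day was the only gene of the set past the test (limma, adjusted p under 0.05 and fold change over 1.5), or 1 of 10, where 0.132% of all present probes were called higher. At 25 and 50 mg/kg/day limma called 0 of the 10, and it called 0% of all present probes higher at each of these doses. An unadjusted p under 0.05 was reached, always higher, by 4 genes at the lowest dose (background 4.18%), by 3 at the middle dose (background 3.75%) and by 7 at the highest (background 6.52%). Among the 8 hepatocyte markers 1, 1 and 6 reached it at the 3 doses, also higher, so such a count at the highest dose is not particular to the 10 genes. All 5 exposed livers lay above all 5 controls for none of the 10 genes at the lowest dose (background 0.559%), for *Fasn* alone at the middle dose (background 0.516%) and for *Acacb* alone at the highest (background 0.936%). The *Acacb* probe in these counts was named through the study's own list of significant genes.

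**Figure D1:**
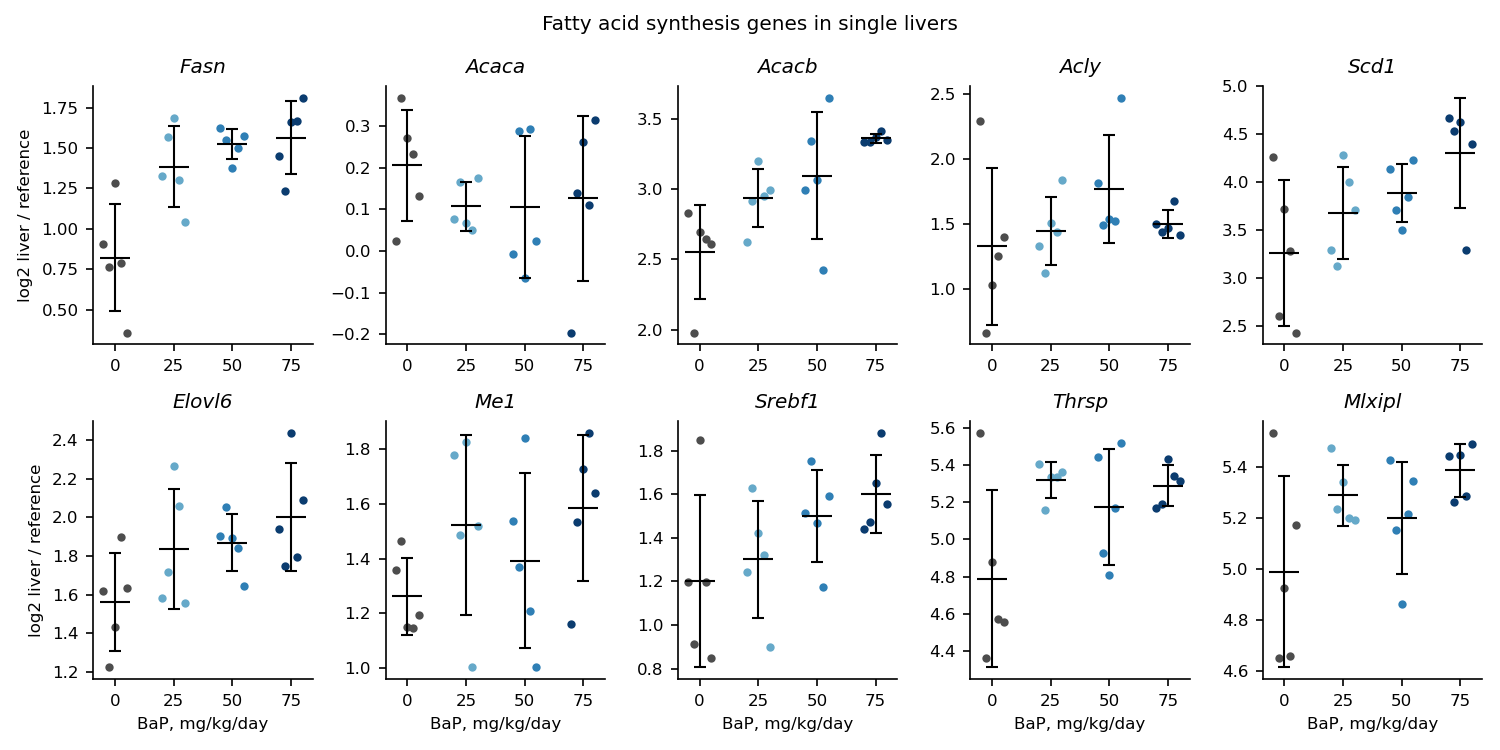
Each panel is 1 gene, each point 1 liver, and the bar is the mean with its SD over the 5 livers of a group. The horizontal axis gives the BaP dose in mg/kg/day and the vertical axis the log2 ratio of liver over reference, with its own range in each panel. In the Fasn panel all 5 livers at 50 mg/kg/day lie above every control, in the Acacb panel the 5 livers at 75 mg/kg/day sit between 3.34 and 3.41, and in the Scd1, Acly, Thrsp and Mlxipl panels the highest control lies far above the lowest.

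*Fasn*, the enzyme that assembles palmitate, gave the clearest values of the set. Control replicates 1 to 5 had ratios of 0.91, 0.76, 1.28, 0.79 and 0.36. At 25 mg/kg/day (replicates 6 to 10) they were 1.33, 1.57, 1.69, 1.30 and 1.04, and at 50 mg/kg/day (11 to 15) they were 1.63, 1.55, 1.38, 1.501 and 1.58. At 75 mg/kg/day (16 to 20) the ratios were 1.45, 1.24, 1.66, 1.67 and 1.81. The controls stayed below 1 except for replicate 3, which overlapped 1 liver at the lowest and 1 at the highest dose and none at the middle dose. *Fasn* rose at 75 mg/kg/day by a log2 fold change of 0.74 (SE 0.15, 1.68-fold, limma adjusted p = 0.0401). The change was 0.70 at the middle dose (SE 0.15, limma adjusted p = 0.327) and 0.57 at the lowest (SE 0.15, limma adjusted p = 0.636), neither past the test. A second *Fasn* probe was higher in all 5 livers than in every control at both 50 and 75 mg/kg/day, with log2 fold changes of 0.69 and 0.65 (SE 0.15 each, limma adjusted p = 0.339 and 0.112), and of 0.30 at the lowest dose. The call stood close to its threshold. Over fits that each left out 1 of the 20 arrays, limma's adjusted p for *Fasn* at 75 mg/kg/day ran from 0.0115 to 0.149. It stayed under 0.05 only without control replicate 3, without replicate 7, 8 or 10 of the 25 mg/kg/day group, or without replicate 17 of the 75 mg/kg/day group, and leaving out any of the other 15 arrays ended the call.

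*Acacb*, the carboxylase whose malonyl-CoA restrains the entry of fatty acids into mitochondria, had control values of 2.83, 1.98, 2.70, 2.65 and 2.61. At 25 mg/kg/day they were 2.62, 2.92, 3.20, 2.95 and 2.99, and at 50 mg/kg/day 3.00, 3.34, 3.06, 2.43 and 3.65. The highest dose gave 3.34, 3.34, 3.37, 3.41 and 3.35, a spread (SD 0.03, n = 5) far under that of the controls (SD 0.33, n = 5). All 5 livers at the highest dose were above every control, by a mean of 0.81 (SE 0.18, 1.75-fold), which missed the threshold at a limma adjusted p of 0.0771. Leaving out replicate 14 or 15 of the 50 mg/kg/day group, the lowest and highest of their group, brought it to 0.0253 and 0.0464. This bright probe carries an Ensembl transcript and was tied to *Acacb* only by the study's table of genes significant in at least 1 treatment group. Its place in the set thus came through these same data, and its rise is no separate support. The probe that RefSeq ties to *Acacb* was dim, well above background on 7 of 20 arrays, with log2 fold changes of 0.09, 0.09 and 0.12. With that probe in place of the bright one, 3, 2 and 6 of the 10 genes reached an unadjusted limma p under 0.05 upward at the 3 doses. The median log2 fold changes were then 0.27, 0.30 and 0.40, and the count of called genes stayed at 0, 0 and 1. On the RefSeq-named probe 3 of 5 livers at 75 mg/kg/day lay above every control.

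*Acaca*, the cytosolic carboxylase that commits acetyl-CoA to synthesis, had exposed means below its control mean on its brightest probe. They were 0.21 ± 0.13 in controls and 0.11 ± 0.06, 0.11 ± 0.17 and 0.13 ± 0.20 at rising dose (SD, n = 5 each), with log2 fold changes between -0.10 and -0.08 (SE 0.10). Its 3 probes were dim, well above background on 14, 11 and 7 of 20 arrays. The dimmest gave 0.23, 0.13 and 0.39 (limma adjusted p = 0.238 at the highest dose), so the probes differ in direction and no direction is given for the gene.

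*Acly*, which feeds acetyl-CoA into the pathway, was spread over most of its range within the controls. Control replicate 1 stood at 2.29 and control replicate 2 at 0.66, and 1 exposed liver in all, replicate 15 of the 50 mg/kg/day group at 2.47, lay above the highest control. The log2 fold changes were 0.12, 0.44 and 0.17 (SE 0.23, limma adjusted p from 0.757 to 0.917). *Me1*, the malic enzyme that regenerates NADPH, had means of 1.26 ± 0.14, 1.52 ± 0.33, 1.39 ± 0.32 and 1.59 ± 0.27 from control to the highest dose (SD, n = 5 each). At 25 and at 75 mg/kg/day 4 of 5 livers exceeded every control, and the log2 fold changes of 0.26 and 0.32 (SE 0.17) had limma adjusted p of 0.704 and 0.473.

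*Scd1*, the desaturase that makes oleate and palmitoleate, had the largest fold change of the 10 at 75 mg/kg/day and also the widest spread. Control values were 4.26, 2.61, 3.72, 3.28 and 2.44, more than 3-fold apart on a linear scale. At 25 mg/kg/day they were 3.30, 3.13, 4.28, 4.00 and 3.71, and at 50 mg/kg/day 4.14, 3.71, 3.50, 3.84 and 4.24. In the 75 mg/kg/day group 4 livers stood between 4.40 and 4.67, above every control, and replicate 19 stood at 3.30. The mean difference at this dose was 1.04 (SE 0.32, 2.06-fold) with a limma adjusted p of 0.233. Its residual SD, 0.55, exceeded that of 97.1% of present probes. *Elovl6*, the elongase acting on palmitate, had control values from 1.22 to 1.90 and values at 75 mg/kg/day from 1.75 to 2.44. Its log2 fold changes were 0.27, 0.31 and 0.44 (SE 0.16), the last at a limma adjusted p of 0.296.

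*Srebf1*, the gene of SREBP-1, stood at 1.20 ± 0.40, 1.30 ± 0.27, 1.499 ± 0.21 and 1.60 ± 0.18 from control to the highest dose (SD, n = 5 each). Control replicate 3 at 1.85 was above 14 of the 15 exposed livers, and replicate 19 of the highest dose, at 1.88, was the only one over it. The log2 fold changes were 0.10, 0.30 and 0.40 (SE 0.17, limma adjusted p = 0.372 at the highest dose). *Thrsp* had control values of 5.58, 4.36, 4.88, 4.57 and 4.55, and its exposed livers lay between 4.81 and 5.52, so that control replicate 1 exceeded all 15 of them. Fold changes on the log2 scale were 0.53, 0.39 and 0.50 (SE 0.18, limma adjusted p = 0.636, 0.727 and 0.294). Without control replicate 1 the change at 75 mg/kg/day was 0.70 at a limma adjusted p of 0.0358, and over the other settings tried its adjusted p ran up to 0.73. *Mlxipl*, the gene of ChREBP, had the same control livers at its ends, with replicate 1 highest (5.53) and replicate 2 lowest (4.65), and no exposed liver exceeded replicate 1. Its log2 fold changes were 0.30, 0.21 and 0.40 (SE 0.14, limma adjusted p = 0.312 at the highest dose).

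**Figure D2:**
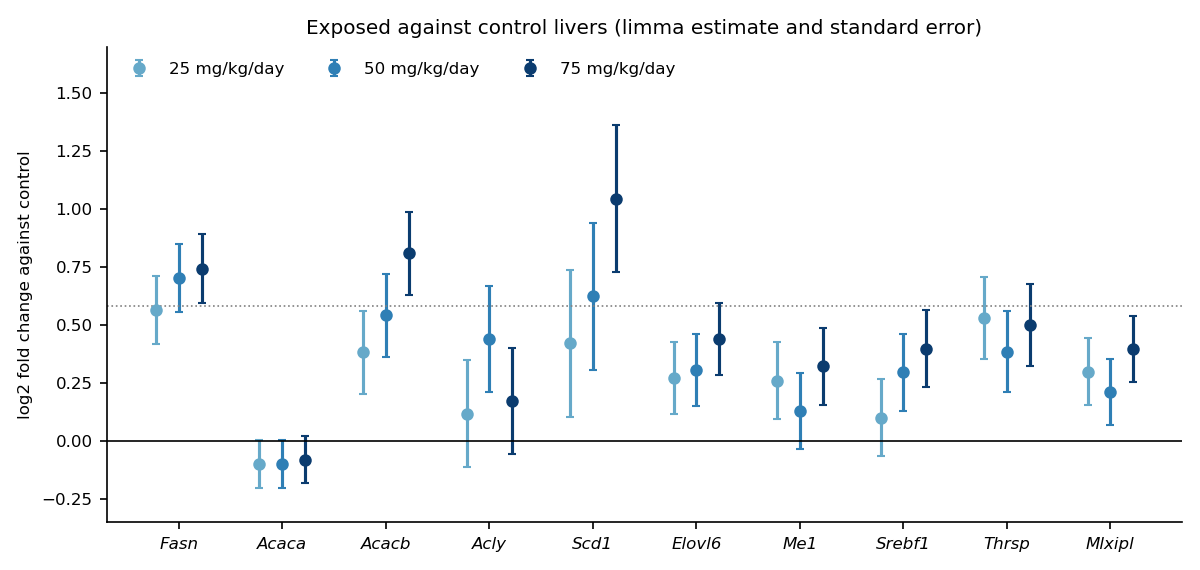
Points are limma log2 fold changes of each dose against control and bars their standard errors, with 5 livers a group. The solid line is no change and the dotted line a 1.5-fold increase. Fasn and Scd1 at 50 and 75 mg/kg/day and Acacb at the highest dose lie above the dotted line, and Acaca, whose dimmer probes differ in direction, lies under 0 at every dose.

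No step between neighbouring doses was past the test for any of the 10 genes. From 25 to 50 mg/kg/day the changes ran from -0.14 (*Thrsp*) to 0.32 (*Acly*), and from 50 to 75 mg/kg/day from -0.27 (*Acly*) to 0.42 (*Scd1*). limma called 0% of all present probes at either step, and 0 of the 10 genes had an unadjusted p under 0.05 where 8.29% and 6.91% of all present probes had one in either direction. With dose as a number, 9 of the 10 slopes were above 0 and none passed (limma, lowest adjusted p 0.0552 for *Acacb*, where 0.154% of all present probes passed with a rising slope). *Acacb* had a slope of 0.26 (SE 0.05) for each 25 mg/kg/day, *Fasn* of 0.24 (SE 0.05, limma adjusted p = 0.065) and *Scd1* of 0.33 (SE 0.10, limma adjusted p = 0.244). An unadjusted p under 0.05 was reached by 7 slopes, all rising (background 5.07%). The moderated F test of limma over the 3 doses passed 0 of the 10 (lowest adjusted p 0.125 for *Fasn*, background 0.0805%) and 4 had an unadjusted p under 0.05 (background 8.23%). Both counts by unadjusted p, 7 slopes and 4 genes, include the bright *Acacb* probe, which was named through the study's own list of significant genes. The RefSeq-named *Acacb* probe had an unadjusted limma p of 0.33 for the slope and of 0.769 for the F test.

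Single livers differed in the mean of the set, though not every gene followed it. Averaged over the 10 genes, the deviation from the control mean was 0.36 in control replicate 1, -0.30 in replicate 2, 0.13 in replicate 3, -0.03 in replicate 4 and -0.16 in replicate 5. The exposed livers spanned 0.22 to 0.50, 0.22 to 0.51 and 0.39 to 0.61 as the dose rose. Control replicate 1 thus lay within the range of both lower doses, and all 5 livers of the highest dose lay above it. A like separation was seen for the wider lipogenic list given below (lowest 0.106, highest control 0.078). It was barely seen for the endothelial markers (0.3368 and 0.3365), and not for the hepatocyte, other cell-type, sterol, fasting or clock lists. No background share for such means was taken, and the mean includes the bright *Acacb* probe named through the study's table. The SD over livers was 0.26 in controls and 0.12, 0.13 and 0.10 in the exposed groups (n = 5 each).

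**Figure D3:**
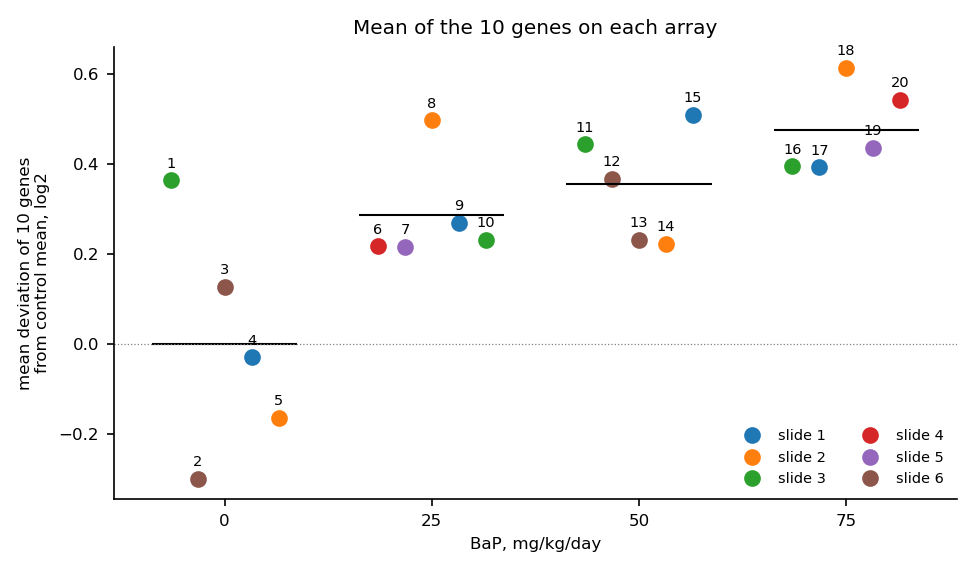
Each point is 1 liver, numbered by replicate and colored by slide, the vertical axis is the mean over the 10 genes of the log2 deviation from the control mean, and lines are group means. Control replicates 1 and 2, at 0.36 and -0.30, bound the control group, and the 5 livers at 75 mg/kg/day lie between 0.39 and 0.61.

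After group means were removed, the genes varied together in part. Over the 20 arrays the highest correlations (Pearson's r, descriptive) were those of *Acly* with *Thrsp* (r = 0.81), *Thrsp* with *Mlxipl* (r = 0.81) and *Fasn* with *Srebf1* (r = 0.77). The median over the 45 pairs was 0.14, 32 pairs were above 0, and with slide means also removed the median was 0.34. *Thrsp* followed the mean of the other 9 genes most closely (r = 0.75), while *Acaca* (r = -0.28) and *Me1* (r = -0.16) ran against it. The points share arrays, reference RNA and slides, and control replicates 1 and 2 are the ends of the scale for *Acly*, *Thrsp* and *Mlxipl* in that group.

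**Figure D4:**
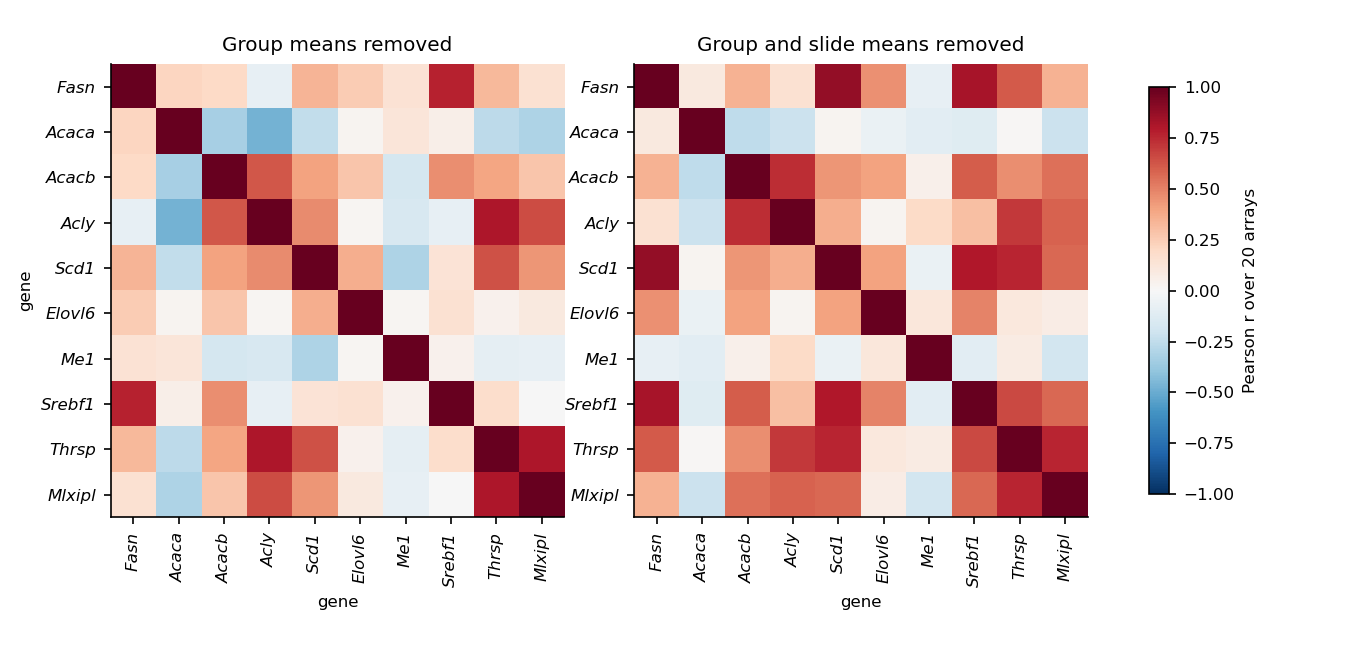
Squares give Pearson's r between each pair of the 10 genes over 20 arrays, from blue (-1) through white (0) to red (1), after group means (left) or group and slide means (right) were removed. Thrsp, Mlxipl and Acly form a red block at left, Fasn pairs with Srebf1, and the rows of Acaca and Me1 are pale or blue.

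The share of the total variance that lay between slides differed by gene. It was 58.7% for *Mlxipl* and 43.7% for *Thrsp*, the highest of the 10, and 13.9% for *Fasn* and 12.5% for *Acacb*, the lowest. For these 4 genes in that order the share between groups was 33.6%, 39.4%, 65.7% and 54.4%. Not every slide held a control, so the shares of slides and groups overlap. With 6 slides over 20 arrays part of a slide share arises by chance, and no background share was taken. Within slides that held both, *Fasn* was higher in exposed than in control livers in 3 of 3 slides at the lowest dose (0.13 to 1.33), in 4 of 4 at the middle dose (0.44 to 1.14) and in 3 of 3 at the highest (0.44 to 1.31). *Acacb* was higher in 3 of 3 slides at 75 mg/kg/day (0.50 to 0.77), as was *Scd1* (0.41 to 2.20). Over all 10 genes, 21 of 30 within-slide differences were positive at the lowest dose, 30 of 40 at the middle dose and 23 of 30 at the highest. The genes were read on the same few slides and the doses share controls, so these differences are not separate observations. The share over all present probes was not taken. *Thrsp* and *Mlxipl* turned negative on 1 slide at each dose. With slide as a fixed block, *Fasn* at 75 mg/kg/day had a log2 fold change of 0.71 and a limma adjusted p of 0.117, and with slide as a random block 0.74 and 0.0294.

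The ratio to the reference was higher in exposed livers for genes rich in liver as a class. Of the 716 present probes with a mean ratio over 4, the range of *Thrsp* and *Mlxipl*, 92.6%, 87.7% and 89.5% were above 0 at the 3 doses, with medians of 0.26, 0.20 and 0.31. Between 2 and 4, the range of *Acacb* and *Scd1*, the medians were 0.13, 0.07 and 0.13, and between 1 and 2, that of *Fasn*, *Acly*, *Elovl6*, *Me1* and *Srebf1*, they were 0.10, 0.01 and 0.09. The 8 hepatocyte markers had medians of 0.32, 0.25 and 0.41, all 8 above 0 at each dose, beside 0.29, 0.35 and 0.42 for the 10 genes. In the liver channel alone, without the reference, probes with a ratio over 4 had a median of 0.01 at 75 mg/kg/day and the hepatocyte markers 0.07, and the 10 genes had a median of 0.36 with 9 above 0. There *Scd1* was 1.23 (SE 0.39), *Acacb* 0.88 (SE 0.19) and *Fasn* 0.52 (SE 0.15) above control at that dose, none past the test (limma adjusted p = 0.345, 0.0836 and 0.269). *Thrsp* was 0.68 (SE 0.41) and *Mlxipl* 0.33 (SE 0.15) above control there, at limma adjusted p of 0.73 and 0.568. At 25 and 50 mg/kg/day the liver channel gave medians of 0.24 and 0.45 for the 10 genes and of 0.13 and 0.12 for the hepatocyte markers. The liver channel was quantile normalized, which gives every array the same distribution of values and limits differences at its top. The 8 hepatocyte markers lay there, from percentile 92.6 of liver intensity (*Hnf4a*) to 99.995 (*Alb*). How far this lowered their values was not tested. Dividing each array's ratios by their slope on the mean ratio of all arrays, a setting added after the data were seen, left medians of 0.18, 0.26 and 0.29 for the 10 genes and of 0.08, 0.11 and 0.19 for the hepatocyte markers at the 3 doses, with 5, 8 and 8 of the 8 markers above 0. Under that setting *Thrsp* stood at 0.26, 0.25 and 0.24 (SE 0.16) and *Mlxipl* at 0.017, 0.070 and 0.13 (SE 0.13), while *Fasn* stood at 0.69 at 75 mg/kg/day (limma adjusted p = 0.071).

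**Figure D5:**
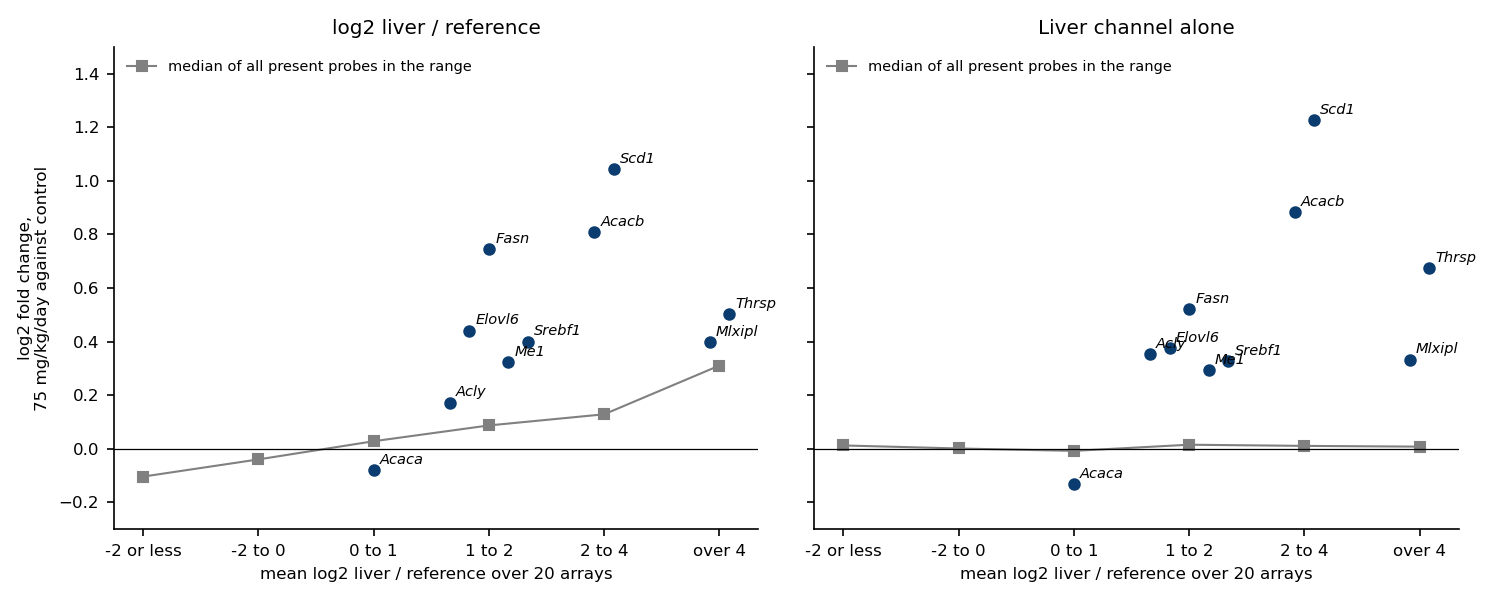
The vertical axis is the log2 fold change at 75 mg/kg/day against control and the horizontal axis the mean log2 ratio of liver over reference on 20 arrays, in 6 ranges. Grey squares are medians of all present probes in a range and blue points the 10 genes, from the ratios (left) or the liver channel alone (right). The grey line climbs from -0.10 to 0.31 at left and stays between -0.01 and 0.02 at right, and every gene but Acaca lies above it in both.

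Averages over markers of other cell types were also higher in exposed livers, and limma called *Lyve1* of the endothelial markers (log2 fold change 2.23, adjusted p = 0.0189) and *Marco* of the Kupffer cell markers (2.19, adjusted p = 0.00148) at 75 mg/kg/day. Averaged over 7 markers of endothelial cells, the deviation from control was 0.33, 0.41 and 0.68 at the 3 doses and followed the mean of the 10 genes within groups (r = 0.74 over 20 arrays). The range over livers was -0.55 to 0.34 in controls and 0.34 to 0.98 at 75 mg/kg/day. The medians of the 7 genes were lower than these means at both higher doses (0.33, 0.27 and 0.34), with *Lyve1* the highest of them there. For the 7 Kupffer cell markers the group means were 0.18, 0.36 and 0.33 (r = 0.26), with medians of 0.17, 0.12 and 0.08 beside them and *Marco* at 1.71 and 2.19 at the higher doses. The 7 stellate cell markers had means of 0.31, 0.40 and 0.31 (r = 0.66) and the 5 present adipocyte markers means of 0.13, 0.04 and 0.15 (r = 0.50). The 4 present lung epithelium markers had means of 0.19, 0.21 and 0.36 (r = 0.35) and medians of 0.07, 0.22 and 0.10, with *Sftpd* at 1.19 at 75 mg/kg/day. Of the 5 present adipocyte markers *Adipoq*, *Retn* and *Cfd* were well above background on 1, 3 and 4 of 20 arrays, and *Lipe* and *Car3* on all 20. The averages over cell-type markers and their r are from ratios to the reference, which were higher for genes rich in liver as a class. For these cell types they were not recomputed in the liver channel alone. In bulk liver, more cells of a type and more RNA in each cannot be told apart, and the part of other cells in the values of the 10 genes was not tested.

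The wider lipogenic list, fixed with earlier results known, held 85 other genes, 80 of them present, and none was called at any dose. Above 0 were 52, 57 and 55 of the 80, with medians of 0.10, 0.14 and 0.16, and 5, 15 and 19 reached an unadjusted p under 0.05 upward (background 4.18%, 3.75% and 6.52%), while 1 did so downward at each dose (background 3.62%, 2.94% and 4.69%). Enzymes that supply citrate, acetyl-CoA and NADPH had medians of 0.11, 0.15 and 0.17 over 16 genes. Triglyceride assembly and droplet genes (24) had medians of 0.17, 0.09 and 0.19, elongases and desaturases (17) 0.02, 0.11 and 0.22, and regulators (23) 0.08, 0.17 and 0.04. *Pnpla3*, a droplet protein gene that follows SREBP-1c, was among the 2 highest at every dose, with log2 fold changes of 0.66, 0.85 and 1.41 (SE 0.35, limma adjusted p = 0.134 at the highest dose). *Rgs16*, a feeding-related regulator of G protein signals, shared that place at 25 and 75 mg/kg/day (0.80 and 1.10, SE 0.75), and *Slc25a1*, the citrate carrier, at 50 mg/kg/day (0.67, SE 0.27). The lowest were *Elovl7* (-0.41) and *Prkab1* (-0.29) at 25 mg/kg/day, and *Plin4*, a droplet coat protein gene, and *Insig2*, which holds SREBP in the endoplasmic reticulum, at both higher doses (*Plin4* -0.55 and -0.50, *Insig2* -0.34 and -0.37). *Acss2*, which makes acetyl-CoA from acetate and was singled out after its values were seen, gave 0.55, 0.58 and 0.86 (SE 0.20, limma adjusted p = 0.109 at the highest dose).

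The neighbouring programs gave these values beside the 10 genes. The 21 present sterol synthesis genes had group means of 0.11 ± 0.07, 0.27 ± 0.11 and 0.22 ± 0.17 above control (SD over 5 livers), against 0.29 ± 0.12, 0.35 ± 0.13 and 0.48 ± 0.10 for the fatty acid set, and none was called. The difference between the lists was not tested. The 14 genes that rise in fasted liver stood at -0.05 ± 0.20, -0.07 ± 0.15 and 0.16 ± 0.25, with medians over genes of 0.14, 0.07 and 0.27 and 8, 8 and 11 of them above 0. The lowest of them was *Cyp4a14* (-0.91) at the lowest dose and *Fgf21* (-1.14) at the middle dose, and the highest at both was *Lpin1* (0.29 and 0.62). *Lpin1* and *Cidea* belong to both the fasting list and the wider lipogenic list. The 15 clock genes stood at 0.22 ± 0.12, 0.20 ± 0.21 and 0.08 ± 0.22, and none of either list was called. Within groups these lists followed the mean of the 10 genes weakly (r = 0.28 for sterol, -0.17 for fasting and 0.02 for clock genes, over 20 arrays).

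Outside the 10 genes and the wider lipogenic list, the 5 genes of 12729 most like the mean of the 10, by Pearson's r over 20 arrays with group means removed, were *Apip* (r = 0.85), *Grk5* (r = 0.80), *Marcks* (r = 0.79), *Cdh5* (r = 0.79) and *Hsd3b4* (r = 0.79). They were taken as the highest of all genes ranked, so the size of r is a description. *Cdh5*, an endothelial junction gene and 1 of the 7 endothelial markers above, had 3.58 ± 0.93 in controls and 4.39 ± 0.29, 3.95 ± 0.62 and 4.36 ± 0.65 in the exposed groups (SD, n = 5 each). None of the 5 was called at any dose.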

How the data were processed

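Liver RNA of 20 mice, 5 a group, was measured on two-color arrays. The authors deposited median spot and background intensities without normalization, intensities that the scanner's Feature Extraction software (10.1.1.1 in the file headers) had background subtracted and dye normalized, and a log2 ratio table normalized by LOWESS, which followed the ratios computed here at r of 0.994 to 0.996. The study's methods removed 1 array that they do not name, and all 20 were kept here.

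Median intensities were background corrected by normexp (offset 50) and normalized by loess within arrays in limma 3.58.1 (R 4.3.3, with statmod 1.5.0), outlier spots were left out, and spots were averaged per probe. A probe was present when its liver signal lay over the 153 negative control spots by the rule of the study's methods (mean plus 3 SDs, both with a 5% trim) on at least 4 arrays of 1 group of 5. Symbols came from RefSeq accessions for 23374 of 41174 probes and from the study's table of significant genes for 22. The script was tested on simulated data. A gene was represented by its brightest present probe. All 10 genes are named, and of the wider list the 2 highest and 2 lowest at each dose, any called, and the 5 outside genes most like the mean of the 10.

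The 4 group means were fitted over 20 arrays, two-sided, with Benjamini-Hochberg adjustment over 27346 probes, and dose per 25 mg/kg/day was fitted as a number. The methods name MAANOVA, for which limma was used here. The number of arrays limits the precision. The genes and lists were chosen with earlier results of these data known. Alternatives were the processed intensities, no background correction, the authors' ratios, the liver channel alone (quantile normalized), 2 filters, slide as a block, each dose alone with control, other call rules, other probes and each array left out. Python 3.11.15 with matplotlib 3.10.9 drew the plots. The series text gives the lowest dose as 24 mg/kg, and 25, as in the labels and the methods, was used.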

Additional observations from a re-analysis of the deposited data

Results flagged for a closer look

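Of 40 groups of 5 livers tested for a value standing far from the rest, 3 had one, and chance gives about 1 in 20. *Acacb* in control replicate 2 was 1.98, with the next control at 2.61. *Scd1* in replicate 19 of the 75 mg/kg/day group was 3.30, with the next liver of that group at 4.40. *Thrsp* in replicate 7 of the 25 mg/kg/day group was 5.16, with the next at 5.33.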

How the results depend on the processing

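*Fasn* at 75 mg/kg/day, the 1 gene called, was not called (count of 0) with the authors' ratios (limma adjusted p = 0.0511), the liver channel alone (0.269), no filter on low values (0.0517), slide as a fixed block (0.117), ratios divided by each array's slope (0.071) or control and that dose alone (0.258), and was called with scanner processed signals (0.0118), no background correction (0.0265), a stricter filter (0.0436), slide as a random block (0.0294). The cause was not tested. With 1 array left out the count of called genes ran from 0 to 1 at this dose and stayed at 0 at both lower doses. Without a fold limit no count of members changed, and by unadjusted p the counts were 4, 3 and 7 at the 3 doses.

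For the slope on dose, main count 0, scanner processed signals gave 1, no background correction 2, the liver channel alone 1, slide as a random block 2, unadjusted p 7, and leaving out an array 0 to 2 (above 0 without control replicate 3 or replicate 8, 14 or 17). For the F test, processed signals gave 1, unadjusted p 4, and leaving out an array 0 to 1 (1 without control replicate 3). The median correlation of pairs moved from 0.14 to 0.34 with slide means removed.

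Of all present probes, 0, 0 and 37 were called in either direction at the 3 doses. Unadjusted p gave 2135, 1831 and 3065. Processed signals gave 4 at 50 and 62 at 75 mg/kg/day, slide as a fixed block 3 and 58, as a random block 6 and 62, and control and dose alone 5 at 75 mg/kg/day. Leaving out an array gave 0 to 2 at 25, 0 to 1 at 50 and 25 to 72 at 75 mg/kg/day, the 2 without control replicate 3, the 1 and the 72 without replicate 19.

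Direction changed for *Acly* with slide as a fixed block (-0.068 at the lowest and -0.015 at the highest dose) and at the lowest dose without control replicate 2 (range with 1 array left out -0.046 to 0.36), and for *Acaca* at the highest dose without replicate 16 (range -0.13 to 0.0016). Other *Acaca* probes gave 0.23, 0.13 and 0.39, or 0.050 at the highest dose. Of 909 fold changes recomputed for the 10 genes under all settings, the other 901 kept their direction. Many of these could not change. Leaving out an array of a group outside the comparison, changing the filter, or fitting control and dose alone returns the same fold change. Replicate numbers are not shared between groups and pair no livers, so the blocked fits above used the slide. *Acaca* dropped out under the stricter filter, and its dim probes limit what can be said of it.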
